A study of Mus musculus with 9 samples.

Results

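The 9 genes described here are the receptors, coreceptors and effectors of Hedgehog signalling in the mouse: Ptch1, Boc, Cdon, Gas1, Smo, Sufu, Gli1, Gli2 and Gli3. They were selected by name, with measured values of these libraries in view, and are 9 of the 22396 genes in the counts table. B16F10 is a mouse melanoma cell line. The cells stably carried FLAG-tagged RIG-I, a cytoplasmic sensor of RNA, and either a control shRNA, named shCtr, or an shRNA that targets OSGEP, an enzyme of the t6A modification of tRNA; the 2 sequences used are named shOSGEP#1 and shOSGEP#2. RNA recovered with anti-FLAG beads was sequenced (RIP-seq) in 3 replicates per group, 9 libraries in all, so each value is a gene's part of what came down with RIG-I; RNA from whole lysate was not measured in these libraries. All groups carry the tagged receptor and an shRNA, and each knockdown rests on a single shRNA sequence.

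Hedgehog ligands bind PTCH1 at the cell surface with the help of the coreceptors BOC, CDON and GAS1. Unbound PTCH1 keeps SMO, a membrane protein of the G protein-coupled receptor class, inactive. Active SMO, at the primary cilium, releases the GLI transcription factors from SUFU, which holds them in the cytoplasm. GLI1 and GLI2 mainly activate genes and GLI3 mainly represses them, and Ptch1 and Gli1 are themselves target genes of the pathway. In melanocytes and melanoma, GLI factors have been studied for their part in growth and in the loss of pigment cell features.

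Total counts of 8 libraries ran from 14914731 to 50224299. The library of shOSGEP#2 replicate 2 held 568995 counts over 4196 genes and is given apart, so shOSGEP#2 has n = 2 in every mean and fit unless stated. Of the 6284 genes for which the other shOSGEP#2 libraries led to at least 20 counts there, 2858 (45.5%) had none. Osgep, the targeted gene, was at 19.1, 19.9 and 15.5 CPM (counts divided by the library total, times 1000000) in the shCtr libraries. It was at 3.76, 1.15 and 1.53 CPM with shOSGEP#1 and at 0.0786 and 2.88 CPM with shOSGEP#2, and it had no count in the shallow library. Every shOSGEP library thus lay below every shCtr library. The log2 fold change was -3.10 ± 0.73 (SE, edgeR adjusted p = 0.0128) for shOSGEP#1 and -3.84 ± 0.93 (SE, edgeR adjusted p = 0.0150) for shOSGEP#2, short of the threshold of 0.01. The shOSGEP#2 value was -2.78 without replicate 1 and -7.86 without replicate 3, where it passed (edgeR adjusted p = 0.00134). It also passed with DESeq2 (adjusted p = 0.00904) and, in edgeR, without a filter (adjusted p = 0.000838). In edgeR it did not pass with the replicate number as a block (adjusted p = 0.0244). Nor did it without any 1 of the shCtr or shOSGEP#1 libraries (edgeR adjusted p up to 0.0446). The shOSGEP#1 value did not pass with DESeq2 (adjusted p = 0.0151) or with that block (edgeR adjusted p = 0.0197). Without any 1 of the shCtr or shOSGEP#1 libraries it ran from -3.77 to -2.79 and did not pass (edgeR adjusted p up to 0.0543). The shOSGEP#1 value passed without a filter (edgeR adjusted p = 0.000639), with only the 2 groups compared (edgeR adjusted p = 0.000973) and without shOSGEP#2 replicate 1 (edgeR adjusted p = 0.000964) or 3 (edgeR adjusted p = 0.000920), at -3.10 to -3.11.

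The markers of the melanocyte lineage were present in all 8 libraries. Summed over the 7 markers (Tyr, Tyrp1, Dct, Pmel, Mlana, Mitf and Sox10), the level was 6336, 6039 and 8473 CPM with shCtr. It was 6288, 7565 and 6840 CPM with shOSGEP#1, and 2617 and 3374 CPM with shOSGEP#2. The most abundant was Tyrp1, and none was at 0 in these 8 libraries, while 2 of the 7 (Tyr and Mitf) were at 0 in the shallow library. The 7 summed to 1664 CPM there, and Sox10 was at 1090 CPM, above every shCtr library (824 to 890 CPM). Of the 7, 5 fell in shOSGEP#2 against shCtr (edgeR, adjusted p under 0.01), and in shOSGEP#1 only Tyr, the tyrosinase of melanin synthesis, passed. The shares of all genes called lower in these comparisons were 3.89% and 4.67%. The calls of Mlana and Sox10 were lost without shOSGEP#2 replicate 3 (edgeR adjusted p = 0.0109) and replicate 1 (edgeR adjusted p = 0.0101), in this order. Tyr went from 166 ± 23.0 CPM (SD, n = 3) to 27.9 ± 2.23 (SD, n = 3) and 12.9 ± 9.79 (SD, n = 2). Markers of other cell types were near 0: the 4 leukocyte markers summed to at most 3.18 CPM, the 2 endothelial markers to 2.12 CPM and the 2 epithelial markers to 0.120 CPM in any library. The 3 fibroblast markers summed to 2.01 to 4.44 CPM in the shCtr and shOSGEP#1 libraries and to 9.50 and 15.7 CPM with shOSGEP#2, with Col1a1 the most abundant. They summed to 68.5 CPM in the shallow library. Col1a1 was higher in shOSGEP#2 than in shOSGEP#1 (log2 fold change 2.66, edgeR adjusted p = 0.00750), a call lost in 6 of 8 leave-outs: without shCtr replicates 1 or 2, any 1 of the shOSGEP#1 libraries or shOSGEP#2 replicate 3 (over all 8, log2 fold changes from 1.73 to 3.23 and edgeR adjusted p up to 0.0801). How far the fall of the pigment genes with shOSGEP#2 moves with the values below was not tested. In such bulk libraries, fewer cells holding a transcript, less of it per cell and less recovery with RIG-I cannot be told apart.

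The comparison of each shRNA with shCtr asks how OSGEP depletion alters the RNA recovered with RIG-I, and the comparison of the shRNAs asks how far they differ. In the coreceptor Boc the shCtr libraries were low and those of shOSGEP#2 high, with shOSGEP#1 between them. Cdon and Ptch1 were higher and Gli3 lower in shOSGEP#2 than in both other groups. Smo lay above the shCtr libraries with both shRNAs, past the threshold with shOSGEP#1 alone, and Sufu was not past the threshold in any comparison. Gli1 had few counts, fewest with shOSGEP#1, and Gas1 and Gli2 had no count in any of the 9 libraries. Of all 22396 genes, 6684 had no count in any library.

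Ptch1 (ENSMUSG00000021466), the ligand receptor that restrains SMO, was at 38.7, 39.5 and 41.7 CPM in shCtr replicates 1 to 3. It was at 35.4, 41.1 and 45.8 CPM in the shOSGEP#1 libraries and at 68.8 and 79.5 CPM in shOSGEP#2 replicates 1 and 3. The shOSGEP#1 libraries lay on both sides of the shCtr libraries, and both shOSGEP#2 libraries lay above all others. The group means were 40.0 ± 1.55 CPM (SD, n = 3), 40.8 ± 5.20 (SD, n = 3) and 74.2 ± 7.57 (SD, n = 2). The log2 fold change was 0.02 ± 0.15 (SE) for shOSGEP#1, with a sign that turned in 2 of 8 leave-outs (-0.01 without shCtr replicate 1, -0.08 without shOSGEP#1 replicate 3). For shOSGEP#2 it was 0.79 ± 0.17 (SE), and the difference between the shRNAs was 0.78 ± 0.17 (SE). The shOSGEP#2 value stayed past the threshold only without shOSGEP#1 replicates 1 or 3, and ran from 0.72 to 0.86 over the leave-outs. The difference between the shRNAs did so only without shOSGEP#1 replicate 3, and ran from 0.69 to 0.87. With the shallow library in the fit, where Ptch1 had no count, the value of shOSGEP#2 against shCtr was 0.25 ± 1.08 (SE).

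Boc (ENSMUSG00000022687) encodes a cell surface coreceptor of the immunoglobulin and fibronectin type III class. Its levels were 10.9, 12.1 and 12.0 CPM with shCtr. They were 27.2, 37.6 and 35.1 CPM with shOSGEP#1 and 83.7 and 64.4 CPM with shOSGEP#2. No library of any group reached into the range of another group. The mean of shOSGEP#1 (33.3 ± 5.44 CPM, SD, n = 3) was 2.85 times, and that of shOSGEP#2 (74.1 ± 13.6 CPM, SD, n = 2) 6.34 times, the shCtr mean of 11.7 ± 0.653 CPM (SD, n = 3). The log2 fold changes were 1.50 ± 0.19 (SE) and 2.57 ± 0.21 (SE), and the difference between the shRNAs was 1.08 ± 0.20 (SE). Both values against shCtr were past the threshold in all 8 leave-outs, that of shOSGEP#2 between 2.33 and 2.78. The difference between the shRNAs was not past it without shOSGEP#1 replicate 1 or without shOSGEP#2 replicate 1, where it was lowest, at 0.84. With all 9 libraries the shOSGEP#2 value against shCtr was 2.57 ± 0.42 (SE). In the shallow library, Boc had 63 counts (111 CPM), where the mean of the other shOSGEP#2 libraries led to 42.1 counts.

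Cdon (ENSMUSG00000038119), the paralogue of Boc with the same role at the cell surface, was at 35.9, 32.2 and 35.8 CPM with shCtr. With shOSGEP#1 it was at 40.5, 54.3 and 30.7 CPM, on both sides of the shCtr libraries. With shOSGEP#2 it was at 161 and 117 CPM, above every other library. The mean of shOSGEP#2 (139 ± 31.8 CPM, SD, n = 2) was 4.02 times that of shCtr (34.6 ± 2.08 CPM, SD, n = 3), while shOSGEP#1 (41.8 ± 11.9 CPM, SD, n = 3) was at 1.21 times. The log2 fold changes were 0.26 ± 0.21 (SE) for shOSGEP#1 and 1.92 ± 0.24 (SE) for shOSGEP#2. The difference between the shRNAs was 1.66 ± 0.24 (SE). Without shOSGEP#1 replicate 2, the shOSGEP#1 value was 0.03, and without replicate 3 it was 0.44. Cdon had no count in the shallow library, where 79.1 were to be had at the mean of the other shOSGEP#2 libraries, and with all 9 libraries the shOSGEP#2 value was 1.35 ± 1.19 (SE).

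Gas1 (ENSMUSG00000052957), the lipid-anchored coreceptor, had no count. At 3 counts as the limit, this allows up to 0.0597 CPM in the deepest library (shOSGEP#1 replicate 2), 0.201 CPM in shOSGEP#2 replicate 3 and 5.27 CPM in the shallow library. Of the 3 coreceptors, Boc and Cdon were thus measured in every group and Gas1 was not. An exact 0 in all 9 libraries may come from the level of the RNA, its recovery with RIG-I or how the table was made. The counts cannot tell these apart. Such limits take in the error of counting alone and leave out the spread between libraries.

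Smo (ENSMUSG00000001761), the signal transducer, was at 112.3, 138 and 140 CPM with shCtr. It was at 234, 263 and 188 CPM with shOSGEP#1 and at 216 CPM in both shOSGEP#2 libraries. All shOSGEP libraries lay above all shCtr libraries, and the shOSGEP#2 values lay inside the range of shOSGEP#1. The means were 130 ± 15.4 CPM (SD, n = 3), 228 ± 38.3 (SD, n = 3) and 216 ± 0.144 (SD, n = 2). The log2 fold changes were 0.80 ± 0.16 (SE) and 0.64 ± 0.18 (SE), and the difference between the shRNAs, -0.16 ± 0.18 (SE), was within its error. The shOSGEP#2 value was not past the threshold. The shOSGEP#1 value was not past the threshold without any 1 of the shCtr libraries or shOSGEP#1 replicates 1 or 2, and ran from 0.68 to 0.92. The shallow library held 659 counts of Smo (1158 CPM), where the mean of the other shOSGEP#2 libraries led to 122.9 counts. With that library in the fit the shOSGEP#2 value was 1.51 ± 0.51 (SE), and the difference between the shRNAs turned to 0.72 ± 0.50 (SE).

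Sufu (ENSMUSG00000025231), which binds GLI proteins and keeps them out of the nucleus, was at 62.6, 62.8 and 56.6 CPM with shCtr. It was at 63.0, 65.2 and 64.8 CPM with shOSGEP#1, just above these, and at 56.2 and 46.4 CPM with shOSGEP#2, just below. The means were 60.7 ± 3.53 CPM (SD, n = 3), 64.3 ± 1.18 (SD, n = 3) and 51.3 ± 6.96 (SD, n = 2). The log2 fold changes of 0.07 ± 0.14 (SE) and -0.33 ± 0.16 (SE) were small beside those of Boc, and the difference between the shRNAs was -0.40 ± 0.16 (SE), from -0.59 to -0.24 over the leave-outs and not past the threshold. The shOSGEP#2 value was -0.17 without replicate 3 and -0.52 without replicate 1. The shallow library had 46 counts (80.8 CPM), where 29.2 were to be had at the mean of the other shOSGEP#2 libraries.

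Gli3 (ENSMUSG00000021318), the GLI protein whose cleaved form is a repressor, was at 68.8, 57.4 and 63.0 CPM with shCtr. It was at 99.6, 96.6 and 71.4 CPM with shOSGEP#1 and at 33.9 and 39.4 CPM with shOSGEP#2. The shOSGEP#1 libraries all lay above and the shOSGEP#2 libraries below the shCtr libraries. The means were 63.0 ± 5.70 CPM (SD, n = 3), 89.2 ± 15.5 (SD, n = 3) and 36.6 ± 3.86 (SD, n = 2). The log2 fold change was 0.49 ± 0.16 (SE) for shOSGEP#1 and -0.88 ± 0.19 (SE) for shOSGEP#2, with a difference between the shRNAs of -1.37 ± 0.19 (SE). This difference was past the threshold in all 8 leave-outs, and the shOSGEP#2 value, from -0.96 to -0.81, only without shOSGEP#1 replicate 3. The shOSGEP#2 value was also not past it with the replicate number as a block, with library totals or with only the 2 groups compared. Gli3 had no count in the shallow library, where 20.8 were to be had at the mean of the other shOSGEP#2 libraries. With all 9 libraries the shOSGEP#2 value was -1.41 ± 0.99 (SE) and the difference between the shRNAs -1.89 ± 1.00 (SE).

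Gli1 (ENSMUSG00000025407), an activator and a target gene of the pathway, had 35, 36 and 35 counts (0.868, 0.754 and 0.837 CPM) with shCtr. It had 7, 9 and 0 counts with shOSGEP#1, and 110 and 15 counts (4.32 and 1.01 CPM) with shOSGEP#2. The libraries of the 3 groups did not overlap, but the shOSGEP#2 libraries differed more from each other than replicate 3 did from shCtr. The log2 fold changes were -2.63 ± 1.01 (SE) and 1.63 ± 1.00 (SE), and without shOSGEP#2 replicate 1 the latter was 0.17. The difference between the shRNAs was 4.26 ± 1.10 (SE), from 2.80 to 4.95 over the leave-outs, and was past the threshold with DESeq2 and without a filter but not in the edgeR fit used here. Gli1 lies on the opposite strand of the annotated gene Arhgap9 and overlaps it. Arhgap9 was at 25.1 to 70.6 CPM in the 8 libraries, and since the strand used in counting is not given in the sources used here, the few Gli1 counts are uncertain. Gli2 (ENSMUSG00000048402), the main activator of the family, had no count, with the same limits as Gas1. Arhgap9 was chosen after its values were seen.

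**Figure D1:**
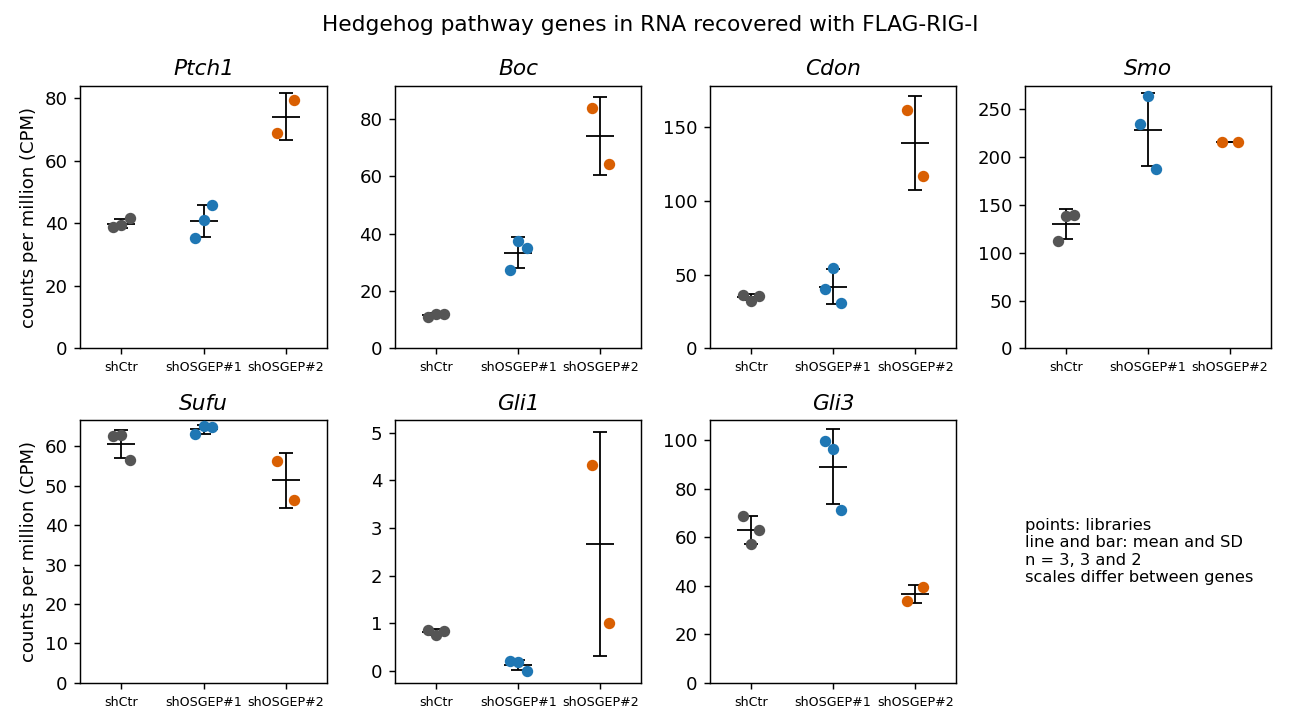
Level of the 7 detected genes in CPM (vertical axis, scale per gene) in each of 8 libraries, by group. Points are libraries, and the line and bar are the mean and SD of n = 3 (shCtr), 3 (shOSGEP#1) and 2 (shOSGEP#2, without the shallow replicate 2); Boc runs from 10.9 CPM in shCtr to 83.7 CPM in shOSGEP#2, and Gli3 is lowest in shOSGEP#2, at 33.9 and 39.4 CPM.

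**Figure D2:**
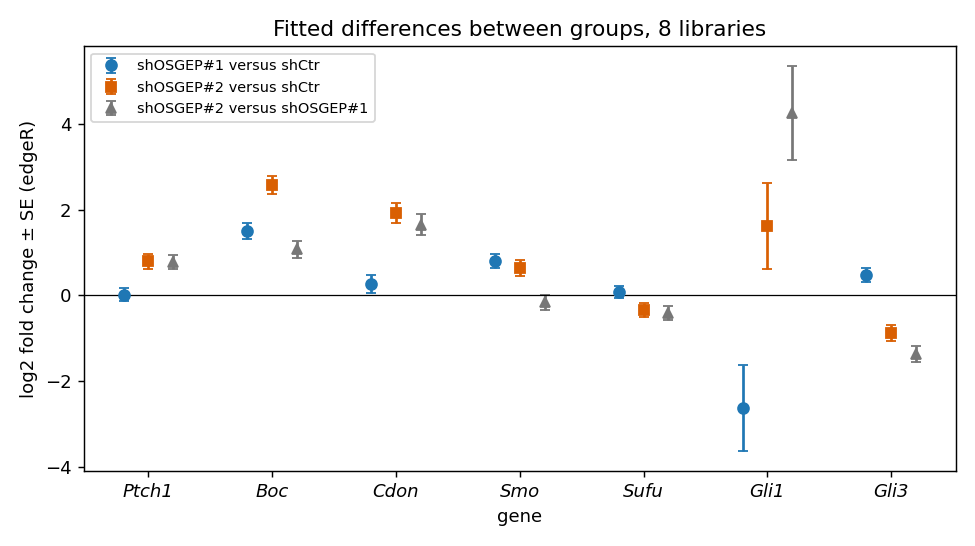
Fitted log2 fold change (vertical axis) of the 7 genes tested, for each of the 3 comparisons, with bars of 1 SE from edgeR on 8 libraries. Boc is above 0 in all 3 comparisons (1.50, 2.57 and 1.08), Gli3 is on opposite sides of 0 for the 2 shRNAs (0.49 and -0.88), and the bars of Gli1 are the widest of the 7 genes.

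Of the 9 genes, 7 passed the filter on low counts. In shOSGEP#1 against shCtr, 2 of these were past the threshold of edgeR as higher (Boc and Smo), beside 637 of all 12744 genes tested (5.00%). None was past it as lower, beside 595 of all genes (4.67%); 1 was lower at an unadjusted p under 0.05, and DESeq2 gave 0 lower. In shOSGEP#2 against shCtr, 3 were past it as higher (Boc, Cdon and Ptch1), beside 721 of all genes (5.66%), and 1 as lower (Gli3), beside 496 of all genes (3.89%). In shOSGEP#2 against shOSGEP#1, 3 were past it as higher (Boc, Cdon and Ptch1), beside 794 of all genes (6.23%), and 1 as lower (Gli3), beside 581 of all genes (4.56%). Since the genes were selected with these contrasts known, nothing is read from these counts. The comparisons with shCtr share their control libraries. The median log2 fold change of the 7 genes was 0.26, 0.79 and 0.78 in the 3 comparisons, beside 0.00, -0.06 and -0.04 over all genes tested. With all 9 libraries, edgeR called no gene of the table (0% of 12337) in any of the 3 comparisons. The numbers at an unadjusted p under 0.05 were 620, 1240 and 1325, and DESeq2 on the same 9 libraries called 122, 349 and 413.

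Set against the length of the longest coding transcript, the order of the levels changed between groups. In the shCtr libraries Smo was highest at 34.4 ± 4.08 CPM per kb (SD, n = 3), followed by Sufu (13.4 ± 0.780), Gli3 (7.72 ± 0.697), Ptch1 (5.17 ± 0.200), Cdon (4.61 ± 0.278), Boc (2.62 ± 0.147) and Gli1 (0.202 ± 0.0145). No neighbours in this order overlapped between libraries. With shOSGEP#1, Smo stood at 60.5 ± 10.1 CPM per kb (SD, n = 3), and Boc, at 7.48 ± 1.22, came after Gli3 (10.9 ± 1.90). Boc overlapped there with Cdon (5.57 ± 1.58), and Cdon with Ptch1 (5.28 ± 0.673). With shOSGEP#2, Smo (57.2 ± 0.0382 CPM per kb, SD, n = 2) was followed by Cdon (18.5 ± 4.23) and Boc (16.6 ± 3.06), which overlapped with each other, as did Sufu (11.3 ± 1.54) and Ptch1 (9.60 ± 0.980). Gli3 came next at 4.48 ± 0.473 CPM per kb. The level of Boc per kb was thus below that of Gli3 in every shCtr library and above it in both shOSGEP#2 libraries.

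For each gene tested, the gene of the table with the most similar profile was taken as that with the smallest root mean square difference of mean-centred log2 CPM over the 8 libraries. For Sufu this was Tex10 (0.0450), for Smo Cbx5 (0.0566), for Ptch1 Mpp5 (0.102) and for Gli3 Jarid2 (0.107). Boc was nearest to Spry1 (0.184), an antagonist of receptor tyrosine kinase signalling, which stood at 2.84, 8.47 and 18.0 CPM in the means of shCtr, shOSGEP#1 and shOSGEP#2. Cdon was nearest to 2310022B05Rik (0.187). The nearest gene to Gli1, Tent5b, was far from it (0.795). Among the members, the closest pair was Sufu and Gli3, at 0.42, followed by Smo and Sufu at 0.45. The measure is small between genes that vary little, so a low value does not show that genes move together. Sufu was not past the threshold in any comparison, while Gli3 was lower in shOSGEP#2 than in shOSGEP#1.

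Ligands and proteins of ligand release made up a list of 8 genes. Of the genes listed (Shh, Ihh, Dhh, Hhat, Disp1, Scube1, Scube2 and Scube3), 5 were tested, and Shh had no count in any library. Dhh, the only ligand tested and named after its values were seen, was at 6.25, 6.58 and 6.89 CPM with shCtr, at 6.98, 6.65 and 3.45 CPM with shOSGEP#1 and at 3.53 and 0 CPM with shOSGEP#2. Disp1, which releases lipid-modified ligand from the producing cell, had the most CPM of the list. It was at 33.5, 27.4 and 24.6 CPM with shCtr, at 29.3, 43.4 and 39.5 CPM with shOSGEP#1 and at 67.9 and 58.7 CPM with shOSGEP#2. It rose in shOSGEP#2 against shCtr (log2 fold change 1.06 ± 0.21 SE, edgeR adjusted p = 0.00544, higher in 2 of 2 libraries). Disp1 had no count in the shallow library, where the mean of the other shOSGEP#2 libraries led to 36.0 counts. With all 9 libraries the value was 0.51. No gene of the list passed in shOSGEP#1 against shCtr or between the shRNAs with edgeR. The numbers at an unadjusted p under 0.05 were 1 and 3, and those of DESeq2 0 and 1. The shares of all genes called higher and lower were 5.00% and 4.67%, 5.66% and 3.89%, and 6.23% and 4.56% in the 3 comparisons. The median log2 fold change of the 5 genes was 0.32, -0.37 and -0.69. They include Scube2, named after its values were seen, with 9, 17 and 28 counts in the shOSGEP#1 libraries. It had 2, 1 and 0 counts with shCtr and 0 in shOSGEP#2 replicates 1 and 3. Its fold change in shOSGEP#2 against shCtr thus rests on almost no counts, and nothing is read from the sign of this median. Without any 1 of the 3 shCtr or 2 shOSGEP#2 libraries the call of Disp1 was lost (edgeR adjusted p up to 0.0295).

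Of the 13 other receptors and surface regulators, 11 were tested. Hhip, a decoy receptor, had no count in any library. Evc2, a ciliary protein that acts next to SMO, rose in shOSGEP#1 from 23.1 ± 2.37 CPM (SD, n = 3) to 40.4 ± 6.85 (SD, n = 3), with a log2 fold change of 0.79 ± 0.17 (SE, edgeR adjusted p = 0.00910, higher in 3 of 3 libraries). Its ciliary partner Iqce was lower in shOSGEP#2 than in shOSGEP#1 (-1.10 ± 0.22 SE, edgeR adjusted p = 0.00446), at 16.6 ± 4.28 CPM (SD, n = 2) against 33.9 ± 1.48 (SD, n = 3). The endocytic receptor Lrp2 was higher in shOSGEP#2 than in shOSGEP#1 (1.55 ± 0.35 SE, edgeR adjusted p = 0.00888), at 14.6 ± 3.02 CPM (SD, n = 2) against 4.69 ± 1.69 (SD, n = 3). These were the 3 genes past the threshold. Between shOSGEP#2 and shCtr edgeR called 0 of the 11, where 5 had an unadjusted p under 0.05 and DESeq2 called 2, beside 5.66% of all genes called higher and 3.89% lower. With shOSGEP#1 against shCtr the shares of all genes were 5.00% and 4.67%, and between the shRNAs 6.23% and 4.56%. Mgrn1, a ubiquitin ligase that acts on SMO and had the most CPM of the list, was at 165 ± 6.32 (SD, n = 3), 115 ± 24.0 (SD, n = 3) and 149 ± 12.2 CPM (SD, n = 2). The median log2 fold change of the 11 genes was 0.07, -0.06 and -0.07 in the 3 comparisons. The 3 calls were each lost without some single libraries (edgeR adjusted p up to 0.0589 for Evc2, without any 1 of the shCtr or shOSGEP#1 libraries). For Iqce it reached 0.0317 and for Lrp2 0.0440, both without shCtr replicates 1 or 2, shOSGEP#1 replicate 2 or shOSGEP#2 replicate 3, Iqce also without shOSGEP#1 replicate 1 and Lrp2 also without shCtr replicate 3 or shOSGEP#1 replicate 3.

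All 18 genes of GLI processing and turnover were tested. The ubiquitin ligase Itch rose in shOSGEP#1 (log2 fold change 0.58 ± 0.13 SE, edgeR adjusted p = 0.00920), from 102 ± 4.52 CPM (SD, n = 3) to 154 ± 11.6 (SD, n = 3), and was lower in shOSGEP#2 than in shOSGEP#1 (-0.78 ± 0.15 SE, edgeR adjusted p = 0.00375). Ulk3, a kinase that acts on GLI proteins, fell in shOSGEP#1 (-1.11 ± 0.21 SE, edgeR adjusted p = 0.00456), from 26.0 ± 4.85 CPM (SD, n = 3) to 12.1 ± 2.53 (SD, n = 3). It was higher in shOSGEP#2 than in shOSGEP#1 (1.13 ± 0.23 SE, edgeR adjusted p = 0.00621). Stk36, the homologue of the fly kinase Fused, was at 10.0, 10.0 and 7.63 CPM with shCtr, at 8.45, 10.4 and 11.2 CPM with shOSGEP#1 and at 2.98 and 2.75 CPM with shOSGEP#2. It fell in shOSGEP#2 against shCtr (-1.77 ± 0.31 SE, edgeR adjusted p = 0.00256) and against shOSGEP#1 (-1.88 ± 0.31 SE, edgeR adjusted p = 0.00165). The counts past the threshold were thus 1 higher and 1 lower in shOSGEP#1, 0 higher and 1 lower in shOSGEP#2, and 1 higher and 2 lower between the shRNAs. Over all genes the shares were 5.00% and 4.67%, 5.66% and 3.89%, and 6.23% and 4.56%. For higher in shOSGEP#2, 3 genes had an unadjusted p under 0.05 and DESeq2 called 2. Prkar1a, the regulatory subunit of protein kinase A and the gene of the list with the most CPM, was at 537 ± 63.3 (SD, n = 3), 663 ± 134 (SD, n = 3) and 605 ± 147 CPM (SD, n = 2). The median log2 fold change of the 18 genes was 0.18, 0.05 and -0.18. The call of Stk36 between the shRNAs held in all 8 leave-outs. In shOSGEP#2 against shCtr it was lost without shCtr replicates 1 or 2 or shOSGEP#2 replicate 3 (edgeR adjusted p up to 0.0153). Those of Itch in shOSGEP#1 (up to 0.0454) were lost without any 1 of the shCtr or shOSGEP#1 libraries. Those of Ulk3 in shOSGEP#1 (up to 0.0314) were lost without shCtr replicates 1 or 2 or shOSGEP#1 replicates 2 or 3. Between the shRNAs, edgeR adjusted p reached 0.0315 for Itch and 0.0314 for Ulk3, both without shCtr replicate 2, shOSGEP#1 replicate 2 or either shOSGEP#2 library, Ulk3 also without shCtr replicate 1 or shOSGEP#1 replicate 3.

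Of 18 Hedgehog target genes, 7 were tested and 7 had no count in any library, beside 6684 of all 22396 genes. Hhip, Foxl1, Foxc2, Grem1, Nkx2-2, Nkx6-1 and Olig2 were those at 0. Bcl2, an inhibitor of apoptosis, was at 40.4, 48.8 and 56.4 CPM with shCtr, at 85.6, 85.3 and 102 CPM with shOSGEP#1 and at 122 and 149 CPM with shOSGEP#2. It rose with both shRNAs (log2 fold change 0.89 ± 0.16 SE, edgeR adjusted p = 0.00379, and 1.38 ± 0.18 SE, edgeR adjusted p = 0.000535), every shOSGEP library being above every shCtr library. Ccnd2, a D-type cyclin and the gene of the list with the most CPM, was at 2729, 2964 and 3183 CPM with shCtr, at 3216, 3378 and 2113 CPM with shOSGEP#1 and at 7094 and 6787 CPM with shOSGEP#2. It rose in shOSGEP#2 against shCtr (1.14 ± 0.20 SE, edgeR adjusted p = 0.00244) and against shOSGEP#1 (1.18 ± 0.20 SE, edgeR adjusted p = 0.00173), while its log2 fold change for shOSGEP#1 was -0.04 ± 0.18 (SE, edgeR adjusted p = 0.896). The shallow library held 1383 counts of Ccnd2 (2431 CPM, below every shCtr library), where the mean of the other shOSGEP#2 libraries led to 3949 counts. With all 9 libraries the shOSGEP#2 value was 0.72 against shCtr and 0.77 against shOSGEP#1. No target gene was past the threshold as lower in any of the 3 comparisons with edgeR. The numbers at an unadjusted p under 0.05 were 2, 0 and 1, and those of DESeq2 1, 0 and 1. The share of all genes called lower was 4.67%, 3.89% and 4.56%, so 0 of 7 lies close to it, and the share called higher 5.00%, 5.66% and 6.23%. The median log2 fold change of the 7 genes was -0.04, 0.31 and 0.48. The call of Bcl2 in shOSGEP#2 and that of Ccnd2 between the shRNAs held in all 8 leave-outs. That of Bcl2 in shOSGEP#1 was lost without shCtr replicates 1 or 2 or shOSGEP#1 replicates 2 or 3 (edgeR adjusted p up to 0.0234), and that of Ccnd2 against shCtr without shCtr replicates 1 or 2 or either shOSGEP#2 library (up to 0.0137).

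The primary cilium is the organelle in which SMO and the GLI proteins meet. Of 38 cilium genes listed, 37 were in the table, and all of these were tested. In shOSGEP#1 against shCtr 5 rose (Ift27, Ift20, Cep290, Ift140 and Tmem231) and edgeR called 0 lower, where 4 were lower at an unadjusted p under 0.05 and DESeq2 called 1. Of all genes, 5.00% were called higher and 4.67% lower in this comparison. With shOSGEP#2 against shCtr, Ift27 rose and Cep164 and Ift57 fell, beside 5.66% of all genes called higher and 3.89% lower. Between the shRNAs, 4 were lower in shOSGEP#2 (Cep164, Ift57, Ift20 and Bbs2) and edgeR called 0 higher, where 1 was higher at an unadjusted p under 0.05 and DESeq2 called 0. Of all genes, 6.23% were called higher and 4.56% lower between the shRNAs. Ift140, Tmem231 and Bbs2 are named after their values were seen. The median log2 fold change of the 37 genes was 0.23, -0.28 and -0.27, beside 0.00, -0.06 and -0.04 over all genes.

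Ift27, a small GTPase of the intraflagellar transport particle, was at 11.0, 12.0 and 13.7 CPM with shCtr, at 36.5, 30.0 and 39.6 CPM with shOSGEP#1 and at 22.5 and 27.5 CPM with shOSGEP#2. Its log2 fold change was 1.52 ± 0.19 (SE, edgeR adjusted p = 0.000513) for shOSGEP#1 and 0.93 ± 0.20 (SE, edgeR adjusted p = 0.00843) for shOSGEP#2. Ift27 had no count in the shallow library, where the mean of the other shOSGEP#2 libraries led to 14.2 counts. With all 9 libraries the shOSGEP#2 value was 0.42. Cep164, a protein of the distal appendages at which the cilium docks, was at 75.8, 66.3 and 65.0 CPM with shCtr, at 88.7, 85.9 and 76.7 CPM with shOSGEP#1 and at 30.1 and 25.1 CPM with shOSGEP#2. Both shOSGEP#2 libraries lay below the other 6, with a log2 fold change of -1.41 ± 0.18 (SE, edgeR adjusted p = 0.000432) against shCtr and -1.68 ± 0.18 (SE, edgeR adjusted p = 0.000188) against shOSGEP#1. Ift57, of the same transport particle as Ift27, went from 15.6 ± 0.749 CPM (SD, n = 3) to 4.27 ± 1.01 (SD, n = 2) in shOSGEP#2 (-1.95 ± 0.30 SE, edgeR adjusted p = 0.00125). Against shOSGEP#1 it was lower by -2.21 ± 0.30 (SE, edgeR adjusted p = 0.000590). Ift20, which also works at the Golgi, was at 20.1 ± 1.98 (SD, n = 3), 34.9 ± 2.93 (SD, n = 3) and 14.1 ± 0.286 CPM (SD, n = 2). It was past the threshold in shOSGEP#1 (0.78 ± 0.17 SE, edgeR adjusted p = 0.00748) and between the shRNAs (-1.38 ± 0.20 SE, edgeR adjusted p = 0.000721). Cep290, of the ciliary transition zone, went from 25.8 ± 1.69 CPM (SD, n = 3) to 52.0 ± 10.9 (SD, n = 3) in shOSGEP#1 (1.00 ± 0.17 SE, edgeR adjusted p = 0.00285). In shOSGEP#2 it was at 43.9 ± 2.46 CPM (SD, n = 2), short of the threshold (0.67 ± 0.19 SE, edgeR adjusted p = 0.0294). The shOSGEP#2 values of Ift140 (0.56 ± 0.19 SE, edgeR adjusted p = 0.0584) and Tmem231 (1.24 ± 0.35 SE, edgeR adjusted p = 0.0268) were also short of it. Kif3b, a motor subunit and the gene of the list with the most CPM, was at 95.3 ± 3.48 (SD, n = 3), 117 ± 8.06 (SD, n = 3) and 101 ± 21.2 CPM (SD, n = 2).

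The calls of Ift27 in shOSGEP#1, of Cep164 and Ift57 against both other groups and of Ift20 between the shRNAs held in all 8 leave-outs of 1 library. That of Ift27 in shOSGEP#2 held only without shOSGEP#1 replicate 3 (edgeR adjusted p up to 0.0488), that of Cep290 was lost without any 1 of the shCtr libraries (up to 0.0226), and that of Ift20 in shOSGEP#1 without any 1 of the shCtr or shOSGEP#1 libraries (up to 0.0535). The call of Ift140 (log2 fold change 0.83) was lost without any 1 of the shCtr libraries or shOSGEP#1 replicates 1 or 2 (up to 0.0277), and that of Tmem231 (1.72) without shCtr or shOSGEP#1 replicates 2 or 3 (up to 0.0260). For Bbs2 (-1.33) it was lost without shCtr replicates 1 or 2, shOSGEP#1 replicates 1 or 3 or shOSGEP#2 replicate 1 (up to 0.0242). Over the 5 lists, 9 of 26 calls held in all 8 leave-outs, and all 26 kept their sign.

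**Figure D3:**
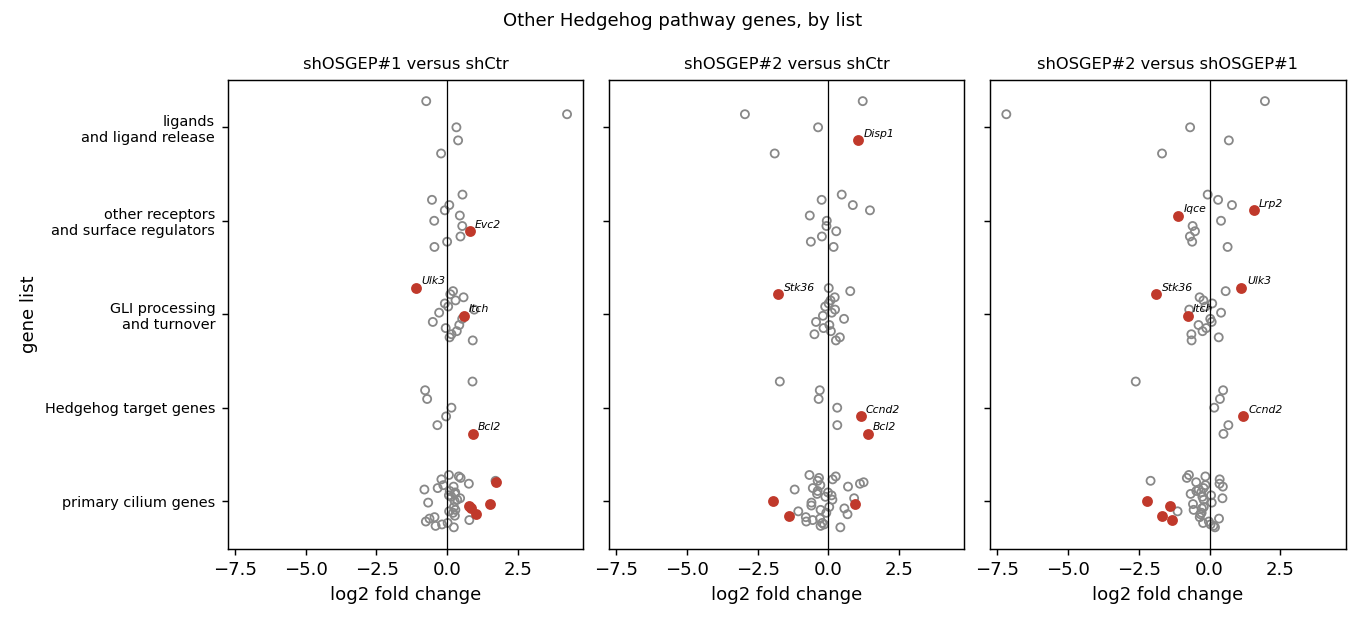
Fitted log2 fold change (horizontal axis) of each tested gene of the 5 lists (vertical axis, genes spread within a list), in the 3 comparisons. Filled points passed an edgeR adjusted p of 0.01 and open points did not; names of filled points are printed except for the cilium genes, of which 5 are filled in the left panel, 3 in the middle and 4 in the right.

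Promoter sequence was looked up for the members from RefSeq (build GRCm38.p6, 250 bases before to 50 after a start), with 7 of 9 in the table and Boc and Gli1 without an entry. The GLI consensus GACCACCCA, searched on both strands (TGGGTGGTC), was in 0 of these 7 windows and in 83 of all 32851 windows (0.253%). The GC box GGGCGG, searched on both strands and chosen after the data were seen, was in the 250 bases before the start of 5 of the 7 and of 32.7% of all windows. GC content of these bases was 78.4% for Ptch1, 68.4% for Smo and 42.8% for Cdon, beside a median of 52.4% over all windows. The window of Cdon overlaps exons of 4 annotated transcripts. Those of the receptor Ptch1 (chr13:63565736-63565985, minus strand, in an intron of 2 longer annotated Ptch1 transcripts) and of its partner Smo (chr6:29735247-29735496, plus strand, upstream of the annotated Smo transcripts) are given because these genes form the receptor pair of the pathway. They are written 5′ to 3′ with the GC box in capitals, of which Ptch1 has 1 and Smo 0.
Ptch1: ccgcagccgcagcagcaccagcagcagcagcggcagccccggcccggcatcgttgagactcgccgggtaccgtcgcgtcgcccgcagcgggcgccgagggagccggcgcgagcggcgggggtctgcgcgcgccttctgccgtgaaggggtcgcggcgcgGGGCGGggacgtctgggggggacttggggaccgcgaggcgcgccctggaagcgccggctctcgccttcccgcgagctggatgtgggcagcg
Smo: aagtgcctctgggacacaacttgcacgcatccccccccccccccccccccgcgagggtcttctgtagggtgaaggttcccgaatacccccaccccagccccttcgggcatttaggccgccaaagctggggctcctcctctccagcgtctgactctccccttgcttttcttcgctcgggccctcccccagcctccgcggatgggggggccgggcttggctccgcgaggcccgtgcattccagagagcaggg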

How the data were processed

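Libraries of RNA bound to RIG-I came from 3 replicates each of shCtr, shOSGEP#1 and shOSGEP#2 B16F10 cells and were made with a stranded kit that removes ribosomal RNA; the strand setting used in counting is not given. Per the submitters' processing notes and the methods of the study, bcl2fastq, Trim Galore, STAR and Salmon were used on GRCm39. The counts used here were deposited by the authors as whole numbers that had not been normalized, and the selection of the table's genes is not stated in the sources used here. Samples were grouped by their titles.

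CPM is the count divided by the library total. Genes were tested with edgeR 4.0.16 in R 4.3.3 (TMM, filterByExpr, quasi-likelihood test, 1 coefficient per group) on 8 libraries, without shOSGEP#2 replicate 2, at a Benjamini-Hochberg adjusted p under 0.01 over all genes tested. The study used DESeq2 on all libraries, which is an alternative here. The SE is the size of the log2 fold change divided by the root of the F statistic. The code was tested on simulated counts. Python 3.11.15, pandas 2.3.3, numpy 2.4.6 and matplotlib 3.10.9 made summaries and plots. Alternatives were all 9 libraries, DESeq2 1.42.0 on 8 and on 9 libraries, RLE factors, library totals, no filter, a minimum of 10 counts in each library, only the 2 groups compared, a threshold of 0.05, the replicate number as a block, each library left out in turn, and TMM-scaled CPM.

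Symbols and transcript lengths came from GENCODE M21, built on GRCm38, by identifier, and coordinates are given only for promoter windows, on GRCm38; 159 of 22396 identifiers had no match and 22237 had one. Genes named are the 9 members, Osgep, up to 5 genes per list past the threshold (by adjusted p), the gene of each list with the highest mean CPM and the nearest profile of each member (log2 CPM with a prior count of 0.5). Markers were a further list. The members and lists were chosen with earlier results of these data known. The study describes replicates as independent experiments, and p-values measure the spread between them. No protein sequences were used here.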

Additional observations from a re-analysis of the deposited data

Results flagged for a closer look

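Several genes differed between the 2 shRNAs in the direct test of shOSGEP#2 against shOSGEP#1. Among the members, which were selected with this contrast known, the log2 difference was 1.08 for Boc, 1.66 for Cdon, 0.78 for Ptch1 and -1.37 for Gli3. Among the receptors and surface regulators it was -1.10 for Iqce and 1.55 for Lrp2. Among the genes of GLI processing it was -1.88 for Stk36, -0.78 for Itch and 1.13 for Ulk3. For the target gene Ccnd2 it was 1.18, and for the cilium genes -1.68 for Cep164, -2.21 for Ift57 and -1.38 for Ift20, to which Bbs2 (-1.33), outside the rule for naming genes, adds a further call. Of the melanocyte markers, 4 of 7 (Dct, Pmel, Mlana and Sox10) were lower in the same comparison, where 4.56% of all genes were called lower, and the fibroblast marker Col1a1 was higher. Whether these differences go with the shRNA sequence, the extent of depletion or the depth of the libraries was not tested.

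The library of shOSGEP#2 replicate 2, which no mean or main comparison uses, held 3 members above the level of every shCtr library: Smo at 1158 CPM, Boc at 111 CPM and Sufu at 80.8 CPM. Cdon, Ptch1 and Gli3 had no count there. What sets the level of a gene in that library was not tested.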

How the results depend on the processing

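Of 354 recomputed log2 fold changes of the 7 members, 350 kept their sign and 332 stayed within 1 SD of the value reported. This SD is the spread of log2 CPM between libraries within groups, pooled over the groups, and not the error of the fold change. For Gli1 it was 1.57, so the shOSGEP#2 value of 0.17 without shOSGEP#2 replicate 1 (reported: 1.63) was within it. The 354 include leave-outs of libraries outside the comparison. Of the 22 beyond 1 SD, 8 came from all 9 libraries, 8 from DESeq2 on all 9, 4 from leaving out shOSGEP#2 replicate 1 and 2 from leaving out shOSGEP#2 replicate 3. The 4 of other sign were Ptch1 with shOSGEP#1 without shCtr replicate 1 (-0.01) or shOSGEP#1 replicate 3 (-0.08), and Smo between the shRNAs with all 9 libraries (0.72) and DESeq2 on these (0.75). For 40 fold changes of other named genes, 677 recomputed values kept their direction and side of the threshold in 500 cases, were no longer past it in 168 and newly past it in 8, whatever the size of the fold change, and had the opposite sign in 1: Osgep between the shRNAs was 0.32 without shOSGEP#2 replicate 1 and -4.75 without replicate 3. With TMM scaling, 1 member mean moved by over 1 SD of the CPM in its group. This was Smo with shOSGEP#2 (SD 0.144 CPM), at 206 CPM in place of 216. The cause was not tested for any of these.

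Counts are given in the order shOSGEP#1 against shCtr, shOSGEP#2 against shCtr and shOSGEP#2 against shOSGEP#1. Genes called were 1232, 1217 and 1375. They were 0, 0 and 0 with all 9 libraries, 2419, 2405 and 2592 with DESeq2, 122, 349 and 413 with DESeq2 on all 9 libraries, and 2797, 2674 and 2952 at an adjusted p under 0.05. With only the 2 groups compared, 737 were called between the shRNAs. Over the leave-outs the counts ran from 318 to 1458, 518 to 1471 and 743 to 1504. The members called (2, 4 and 4) were 0, 0 and 0 with all 9 libraries, 1, 1 and 1 with DESeq2 on these, 2 between the shRNAs with only the 2 groups compared (Boc and Ptch1 not called), and 1 to 2, 2 to 4 and 2 to 4 over the leave-outs. DESeq2 called 2, 5 and 5, with Smo added in shOSGEP#2 against shCtr and Gli1 between the shRNAs, where no filter also added Gli1 (5). Against shCtr, 3 were called in shOSGEP#2 with library totals and with only the 2 groups compared, without Gli3. Where a leave-out keeps 1 library of shOSGEP#2, edgeR pools the spread, and that sample is assumed to vary like the other groups.

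The list counts below add higher and lower. With all 9 libraries, all 5 lists were at 0, 0 and 0. With DESeq2, ligands were at 0, 1 and 1, other receptors at 1, 2 and 4, GLI processing at 8, 3 and 3, targets at 2, 2 and 2 and cilium genes at 8, 9 and 7. With DESeq2 on all 9 libraries, ligands and other receptors were at 0, 0 and 0, GLI processing at 0, 1 and 1, targets at 0, 1 and 0 and cilium genes at 0, 1 and 2. At an adjusted p under 0.05, ligands were at 0, 1 and 2, other receptors at 3, 3 and 4, GLI processing at 8, 3 and 3, targets at 2, 2 and 1 and cilium genes at 10, 11 and 10. Without a filter, ligands were at 1 between the shRNAs, other receptors at 2 in shOSGEP#2, and GLI processing at 4 and targets at 2 in shOSGEP#1. With library totals, other receptors were at 1 and GLI processing at 2 in shOSGEP#2, and with at least 10 counts per library other receptors at 1. With only the 2 groups compared, other receptors were at 0, 2 and 0, GLI processing at 0 between the shRNAs and targets at 2 in shOSGEP#1.

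Over the leave-outs, ligands ran from 0 to 0, 0 to 1 and 0 to 1, other receptors from 0 to 1, 0 to 2 and 0 to 2, and GLI processing from 0 to 3, 0 to 1 and 1 to 3. Targets ran from 0 to 1, 1 to 2 and 1 to 2, and cilium genes from 1 to 6, 2 to 5 and 3 to 4. Of 270 recomputed list counts, 106 lay beyond 1.5 times the count reported.

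The replicate numbers were not taken to pair the libraries, since not every same-number pair had a correlation of deviations from the group mean over 0.1: the 7 pairs ran from -0.020 to 0.160 (mean 0.0671). The 14 pairs of different number ran from -0.160 to 0.142 (mean -0.0331), so the same-number pairs had the higher mean. With n = 2, the shOSGEP#2 libraries deviate from their mean by equal and opposite amounts. Their correlations thus mirror each other (0.160 and -0.160 with shCtr replicate 1) and are not separate evidence. The correlations do not exclude a shared experiment. With the replicate block, 1380, 1238 and 1393 genes and 2, 3 and 4 members were called, Gli3 being the member not called in shOSGEP#2 against shCtr. In this block fit ligands were at 0, 1 and 0, other receptors at 1, 1 and 1, GLI processing at 1, 2 and 2, targets at 1, 2 and 1 and cilium genes at 5, 3 and 5. Of the other named genes, the edgeR calls not past the threshold with the block were Itch in shOSGEP#1 (adjusted p = 0.0115), Ift27 in shOSGEP#2 (0.0140) and, between the shRNAs, Lrp2 (0.0230), Ulk3 (0.0121) and Col1a1 (0.0194).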
